A study of Rattus norvegicus with 17 samples.

Results

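The transcripts of 4 secreted neuropeptides were followed library by library through a rat tumour experiment: Adcyap1, which encodes pituitary adenylate cyclase-activating polypeptide (PACAP), Nts (neurotensin), Nmu (neuromedin U) and Ucn2 (urocortin 2). Each gene was taken as the probe set annotated to its symbol alone, and each had 1 such probe set, which made 4 of the 14506 genes measured. The genes were picked because earlier results on these same arrays showed them high after treatment. Their values by treatment are therefore given as a description, with no test.

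The experiment tested whether blocking phosphoinositide 3-kinase (PI3K) and mTOR acts against pheochromocytoma, a tumour of adrenal chromaffin cells, in rats whose Cdkn1b gene, which encodes the cell cycle inhibitor p27Kip1, was mutated. RNA of 17 samples was hybridised to Affymetrix arrays, 1 array each: 7 control samples (5 female, 2 male) from rats given 20 mg/kg polyethylene glycol (PEG), and 6 (4 female, 2 male) and 4 (3 female, 1 male) samples from rats given the PI3K and mTOR inhibitor NVP-BEZ235, at 20 mg/kg and 30 mg/kg in that order. All rats were 8 months old, of mixed Sprague-Dawley white eye and Wistar-Kyoto background, and all carried the p27Kip1 mutation, so no group without it was compared. The length of treatment is not given in the sources used here.

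The labels disagree on several points. The samples' genotype field gives the mutation as homozygous and the series design as heterozygous, a protocol field names no treatment, and the tissue field names pituitary adenoma where the series title names pheochromocytoma. The arrays held adrenal transcripts. The 6 measured chromaffin markers, among them Th and Dbh of catecholamine synthesis, summed to 13.93 to 14.52 (log2 of the summed level) in controls, 14.20 to 14.55 at 20 mg/kg and 14.30 to 14.63 at 30 mg/kg. The 7 cortex markers, among them Cyp11a1 and Star of steroid synthesis, summed to 13.67 to 14.57 in controls, 13.53 to 14.10 at 20 mg/kg and 14.23 to 14.52 at 30 mg/kg. Of the 9 anterior pituitary markers, 7 had a mean below the mean array median in controls, 9 at 20 mg/kg and 7 at 30 mg/kg, and their sums ran from 7.20 to 9.52 over all libraries. The highest sum was that of control replicate 2, where Prl had 9.16, above the upper quartile of its array. Below, each sample is called a library. The labels do not say that each came from a separate animal, so a p-value here measures only how these samples spread.

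PACAP is released by the nerve that drives the adrenal medulla and acts on chromaffin cells through a receptor coupled to cyclic AMP (cAMP), where it raises catecholamine synthesis and secretion. Neurotensin and neuromedin U are gut and brain peptides with receptors of their own, and neurotensin is also made by adrenal chromaffin cells of some mammals. Urocortin 2 belongs to the corticotropin-releasing hormone family and acts through the type 2 receptor of that family. All of them are cut from larger precursors in secretory granules, and the genes of such peptides are known targets of cAMP and calcium signals in neuroendocrine cells.

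Nts, Nmu and Ucn2 shared a short stretch of letters upstream of their annotated starts in the RefSeq rat genome (GRCr8), and these windows are shown because the peptides were high in the same libraries. The window covered 250 bases before the start. Capitals mark the AP-1 motif TGANTCA, found as TGAGTCA in each, and in Nts also the complement of the cAMP response element (CRE) half-site TGACG. Both strands were searched, and no match overlapped another.
Nts, chr7:39460889-39461138, minus strand: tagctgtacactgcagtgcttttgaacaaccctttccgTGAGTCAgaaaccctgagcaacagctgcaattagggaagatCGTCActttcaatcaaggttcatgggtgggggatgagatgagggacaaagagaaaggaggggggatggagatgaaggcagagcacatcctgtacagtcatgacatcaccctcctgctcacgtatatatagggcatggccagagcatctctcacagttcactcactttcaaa
Ucn2, chr8:118515861-118516110, plus strand: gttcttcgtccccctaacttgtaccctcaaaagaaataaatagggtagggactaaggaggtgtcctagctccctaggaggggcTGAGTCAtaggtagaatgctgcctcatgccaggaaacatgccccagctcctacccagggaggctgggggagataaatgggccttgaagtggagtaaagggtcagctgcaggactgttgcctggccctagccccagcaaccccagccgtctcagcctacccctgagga
Nmu, chr14:32198693-32198803, plus strand, the first 111 bases of its window: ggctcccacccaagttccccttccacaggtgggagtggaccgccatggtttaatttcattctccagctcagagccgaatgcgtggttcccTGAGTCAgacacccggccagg
The AP-1 letters began 212 bases before the start in Nts, 167 in Ucn2 and 160 in Nmu. They were present in 3 of the 4 windows, against 6.34% of the 33469 rat windows of this length. The CRE half-site was present in 2 of the 4, in Nts and in the unprinted rest of the Nmu window, against 18.2% of all windows. The full CRE, TGACGTCA, was present in 0 of the 4, against 1.59% of all windows. Only exact letters were searched, so near matches were not counted. One of the 4 windows, that of Adcyap1, lies wholly inside its annotated gene span. Its lack of a match therefore does not describe the bases before that gene. Of the 111 bases printed for Nmu, the last 15 lie inside the annotated gene span, and they include the last base of the AP-1 match. The rest of the Nmu window, and the whole Adcyap1 window at chr9:120556474-120556723, lie inside the annotated genes too and are not shown. These matches describe letters, and binding was not measured. The genes themselves span chr7:39451484-39460888 (Nts), chr8:118516111-118517660 (Ucn2), chr14:32198789-32226397 (Nmu) and chr9:120550236-120569096 (Adcyap1), and their probe sets were 10902047, 10913467, 10772231 and 10930539 in the same order.

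All 4 peptide transcripts had higher means at 30 mg/kg than in controls, by 3.76 to 3.97 on the log2 scale. These were the highest 4 of the 14506 differences between those groups. The height was uneven. It was carried mostly by replicates 3 and 4 at 30 mg/kg and, at 20 mg/kg, by replicate 10. Nmu was also highest in replicates 3 and 4 at 30 mg/kg, but for Nmu every treated library exceeded every control. In bulk samples such as these, more cells of a type and more RNA per cell cannot be told apart.

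**Figure D1:**
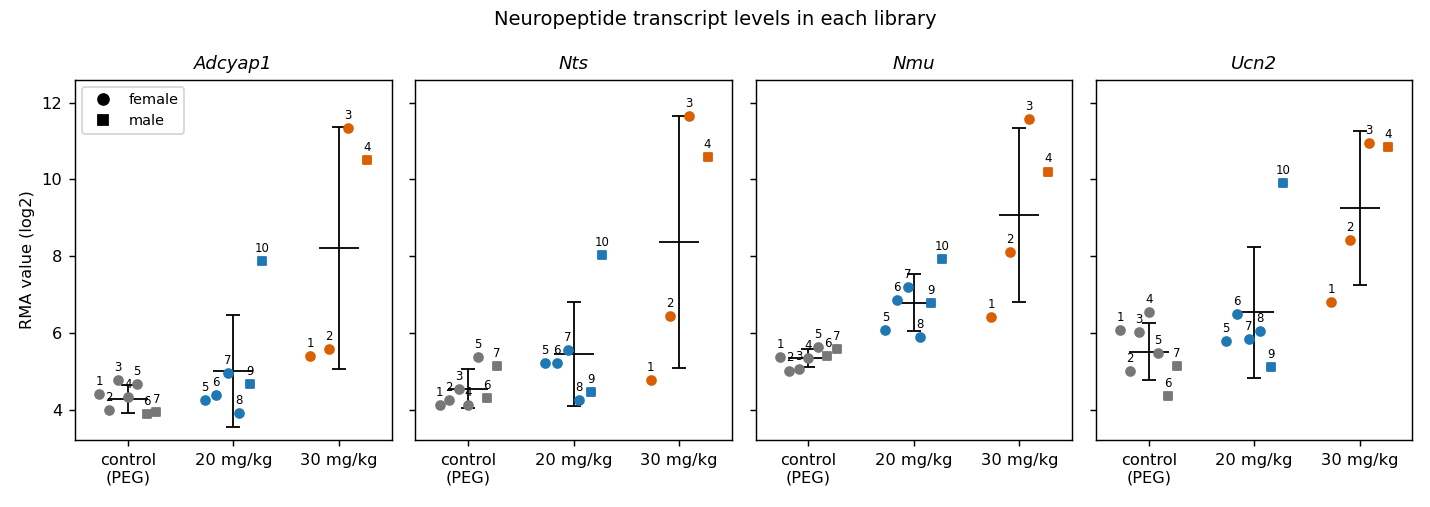
Log2 RMA values of the 4 neuropeptide genes (vertical axes, same scale) in each library of the control, 20 mg/kg and 30 mg/kg groups. Points carry the number in the sample title, circles are female and squares male, the horizontal bar is the group mean and the whiskers 1 SD. Replicates 3 and 4 at 30 mg/kg and replicate 10 at 20 mg/kg were the highest 3 libraries for Adcyap1, Nts and Ucn2; for Nmu replicate 2 at 30 mg/kg (8.12) lay above replicate 10 (7.94).

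Adcyap1 had 4.33 as its median over the 7 controls, with a lowest value of 3.88 and a highest of 4.79. The 20 mg/kg libraries ranged from 3.92 to 7.88 with a median of 4.53. At 30 mg/kg its values in replicates 1 to 4 were 5.40, 5.59, 11.34 and 10.52. The 4 libraries at 30 mg/kg lay above every control, and 2 of the 6 at 20 mg/kg did, replicate 10 by a wide margin and replicate 7 narrowly. The group means were 4.29 ± 0.36 (SD, n = 7) in controls, 5.01 ± 1.45 (n = 6) at 20 mg/kg and 8.22 ± 3.15 (n = 4) at 30 mg/kg. The linear model with sex as a term gave a difference of 0.67 ± 0.82 (SE) for 20 mg/kg over control. For 30 mg/kg over control it gave 3.97 ± 0.92. The model takes the same spread for all groups, while the SD here ran from 0.36 to 3.15. Its SE therefore understates the spread at 30 mg/kg.

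Nts, the precursor of neurotensin and neuromedin N, ranged from 4.12 to 5.37 in controls with a median of 4.31. It ranged from 4.26 to 8.03 at 20 mg/kg with a median of 5.23. In replicates 1 to 4 at 30 mg/kg its values were 4.76, 6.44, 11.64 and 10.59. Replicate 1 at 30 mg/kg thus lay within the control range, and replicates 2, 3 and 4 above it. Replicates 7 and 10 at 20 mg/kg lay above the highest control and the other 4 within the control range. The means were 4.55 ± 0.51 in controls, 5.46 ± 1.36 at 20 mg/kg and 8.36 ± 3.28 at 30 mg/kg. The difference from control was 0.86 ± 0.84 at 20 mg/kg and 3.85 ± 0.94 at 30 mg/kg.

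Nmu, a peptide first known for contracting the uterus and later for its part in feeding, had the tightest controls of the 4, from 5.02 to 5.63 with a median of 5.37. At 20 mg/kg it ranged from 5.91 to 7.94 with a median of 6.82. At 30 mg/kg replicates 1 to 4 had 6.42, 8.12, 11.57 and 10.21. No treated library overlapped the controls at either dose. The means were 5.34 ± 0.23 in controls, 6.79 ± 0.74 at 20 mg/kg and 9.08 ± 2.27 at 30 mg/kg. The differences from control were 1.42 ± 0.55 at 20 mg/kg and 3.77 ± 0.62 at 30 mg/kg; the 20 mg/kg difference was the fourth highest of all genes.

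Ucn2 ranged from 4.36 to 6.54 in controls with a median of 5.48, the widest control range of the 4. At 20 mg/kg it ranged from 5.11 to 9.92 with a median of 5.96. In replicates 1 to 4 at 30 mg/kg its values were 6.81, 8.42, 10.95 and 10.86. Every library at 30 mg/kg exceeded every control, while at 20 mg/kg replicate 10 alone did. The means were 5.52 ± 0.75 in controls, 6.54 ± 1.71 at 20 mg/kg and 9.26 ± 2.01 at 30 mg/kg. Relative to control it differed by 0.99 ± 0.73 at 20 mg/kg and 3.76 ± 0.82 at 30 mg/kg.

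For each peptide the means therefore ran in the order control, 20 mg/kg, 30 mg/kg. Between control and 20 mg/kg the gap exceeded the larger SD of the pair for Nmu alone. Between 20 and 30 mg/kg it did not exceed the SD of the 30 mg/kg group for Nts, exceeded it narrowly for Adcyap1 and Nmu, and exceeded it for Ucn2. In no case did every library at 30 mg/kg lie above every library at 20 mg/kg, a pattern that 5.16% of all genes had. Adcyap1, Nmu and Ucn2 were the 3 peptides with every 30 mg/kg library above every control, which 1.75% of genes had. Nmu was the one with every 20 mg/kg library above every control, which 0.917% of genes had, and with all 10 treated libraries above every control, which 0.0827% had. The genes were chosen on these contrasts, so the shares are given for scale.

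Without replicates 3 and 4 at 30 mg/kg and replicate 10 at 20 mg/kg, an alternative chosen after seeing the data, the differences at 30 mg/kg were 1.15 for Adcyap1, 1.04 for Nts, 2.0 for Nmu and 1.81 for Ucn2. They rested on replicates 1 and 2. For 20 mg/kg the same fit gave 0.13 for Adcyap1, 0.39 for Nts, 1.24 for Nmu and 0.26 for Ucn2. Nmu thus kept most of its difference at 20 mg/kg, while the other 3 lost more than 0.4 on the log2 scale.

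Sample titles number the controls 1 to 7, the 30 mg/kg samples 1 to 4 and the 20 mg/kg samples 5 to 10, so each dose can also be set against the controls that share its numbers. The doses share no number, so the step from 20 to 30 mg/kg cannot be told apart from one between the number sets. The controls numbered 1 to 4 and those numbered 5 to 7 differed somewhat: Nts averaged 4.26 in the lower-numbered and 4.94 in the higher-numbered controls, and Ucn2 averaged 5.91 and 4.99. Within numbers 1 to 4, where the sex term absorbs replicate 4 at 30 mg/kg, the one male, the 30 mg/kg difference was 3.07 for Adcyap1, 3.36 for Nts, 3.51 for Nmu and 2.82 for Ucn2. Within numbers 5 to 10 the 20 mg/kg difference was 1.18 for Adcyap1, 0.71 for Nts, 1.44 for Nmu and 1.79 for Ucn2. All stayed positive. With replicate 10 also left out, the 20 mg/kg differences within numbers 5 to 10 were 0.19 for Adcyap1, -0.29 for Nts, 1.07 for Nmu and 0.48 for Ucn2, so the direction for Nts turned.

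Of the 3 libraries in which Adcyap1, Nts and Ucn2 were highest, replicates 3 and 4 at 30 mg/kg lay outside the control range for Slc18a1 and Pomc. Replicate 10 at 20 mg/kg lay within it for both, and for the summed neuron, chromaffin, pituitary, and Schwann and sustentacular markers. Its summed cortex markers (13.53) lay below the lowest control (13.67). So did its macrophage markers (9.14, lowest control 9.52) and, narrowly, its endothelial markers (9.82, lowest control 9.84). The median correlation of these 3 libraries with the controls across genes was 0.948 and 0.940 for replicates 3 and 4 at 30 mg/kg and 0.961 for replicate 10 at 20 mg/kg. Replicate 2 at 30 mg/kg had 0.955, and the remaining treated libraries had 0.966 to 0.979. Slc18a1, the vesicular monoamine transporter of chromaffin cells, had 7.51 and 8.37 in replicates 3 and 4 at 30 mg/kg, below the lowest of the other 15 libraries, 9.44, but 9.98 in replicate 10 at 20 mg/kg. The other 5 chromaffin markers averaged 12.52 at 30 mg/kg and 12.10 in controls for Th, 12.56 and 12.25 for Dbh, 12.52 and 12.43 for Chgb, 11.98 and 11.97 for Chga, and 6.84 and 7.06 for Phox2a, and the summed level of the list, given above, was not lower at 30 mg/kg. The 8 neuron markers summed to 10.39 to 10.97 at 30 mg/kg, against 10.53 to 11.79 in controls, and to 11.17 in replicate 10 at 20 mg/kg. That sum is set mostly by the most abundant of them, Snap25 and Stmn2. Stmn2 averaged 8.06 at 30 mg/kg and 9.78 in controls, and Snap25 10.01 and 10.26. Elavl4, Rbfox3, Nefl and Nefm also had lower means at 30 mg/kg, while Nos1 (7.28 and 6.22) and Elavl3 (6.06 and 5.94) had higher ones. Pomc, the corticotroph hormone precursor, had 7.86 and 5.80 in replicates 3 and 4 at 30 mg/kg and 4.42 in replicate 10 at 20 mg/kg, and also 6.21 in replicate 9 at 20 mg/kg, against 3.80 to 4.49 in controls. The 6 macrophage markers summed to 8.74 to 9.78 at 30 mg/kg and 9.52 to 9.95 in controls, and the 5 endothelial markers to 10.59 to 10.86 at 30 mg/kg and 9.84 to 10.65 in controls. The 4 measured Schwann and sustentacular markers summed to 7.52 to 7.91 at 30 mg/kg and 7.25 to 8.15 in controls. The part of these shifts in the peptides' levels was not tested.

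Sex was not itself used to choose the peptides, and they were tested for it, with dose in the model. Adcyap1 averaged 6.18 ± 2.93 in the 5 male libraries and 5.17 ± 2.01 in the 12 female ones, Nts 6.51 ± 2.73 in male and 5.46 ± 2.07 in female, Nmu 7.18 ± 1.98 in male and 6.55 ± 1.84 in female, and Ucn2 7.08 ± 3.06 in male and 6.63 ± 1.60 in female. The 5 males include 2 of the 3 libraries described above. The peptides were chosen for high values in treated libraries such as these, so the test is not independent of the choice. The differences, male over female, were 1.16 ± 0.78 for Adcyap1 (SE; limma adjusted p = 0.46), 1.18 ± 0.80 for Nts (adjusted p = 0.46), 0.73 ± 0.53 for Nmu (adjusted p = 0.50) and 0.57 ± 0.70 for Ucn2 (adjusted p = 0.71). Of the 4, 0 passed, where 0.958% of all genes did, and 0 had an unadjusted p under 0.05, where 17.6% of all genes did. Without the 3 libraries the difference was -0.23 for Adcyap1, -0.06 for Nts and -1.03 for Ucn2, so the direction turned for these 3. For Ucn2 it turned also without replicate 10 at 20 mg/kg alone, to -0.23.

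Whether the peptides varied together within a group was asked over the 7 controls and over the 6 libraries at 20 mg/kg. The peptides were chosen on the treated libraries, so the correlations at 20 mg/kg are a description, with no test. There Adcyap1 and Nmu had a Pearson r of 0.88 and a Spearman rho of 0.94 (n = 6). Without the 2 libraries farthest from the median of Adcyap1, replicates 10 and 8, r was 0.85. Adcyap1 and Nts had r = 0.95, and r was 0.11 without replicates 10 and 8, so that relation rested on them. Adcyap1 and Ucn2 had r = 0.91, and -0.33 without them. Nts and Ucn2 had r = 0.93, and 0.70 without them. Nts and Nmu had r = 0.84, and 0.17 without them, and Nmu and Ucn2 had r = 0.71, and 0.09 without them. In the controls (n = 7) the 6 correlations ran from -0.22 to 0.68. Their exact permutation p was 0.096 or higher before any adjustment.

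The genes whose levels followed the peptides most closely over all 17 libraries were named by the highest Pearson r among 11946 genes, as a description, since the libraries share their treatment groups. Adcyap1 was followed by Lcn2, which encodes the iron-siderophore-binding protein lipocalin 2 (r = 0.98), Nts (0.97), Tac1, the precursor of substance P (0.97), Trib1, a pseudokinase (0.97), and Penk, the enkephalin precursor (0.97). Nts was followed by Lcn2 (0.98), Adcyap1 (0.97), Penk (0.97), Nmu (0.95) and Trib1 (0.95). The closest to Nmu were Pdgfra, a platelet-derived growth factor receptor (0.96), Nts (0.95), Fcgr2b, an inhibitory Fc receptor (0.95), Lcn2 (0.95) and Sgms2, a sphingomyelin synthase (0.94). The closest to Ucn2 were Npy, the neuropeptide Y precursor (0.95), Lcn2 (0.95), Pdgfra (0.94), Penk (0.94) and Sgms2 (0.93). Lcn2 stood in all 4 of these lists. Without replicates 3 and 4 at 30 mg/kg these correlations were between 0.79 and 0.92 over 15 libraries. Those 15 still held replicate 10 at 20 mg/kg, where Adcyap1 had 7.88, Trib1 7.42 and Tac1 7.39. The correlations without that library too were not computed, so how far they rest on it is not known. Genes with r above 0.9 numbered 40 for Adcyap1, 24 for Nts, 16 for Nmu and 24 for Ucn2.

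Lcn2 ranged from 7.0 to 7.96 in controls and from 7.72 to 10.05 at 20 mg/kg, and had 7.88, 9.36, 12.03 and 12.16 in replicates 1 to 4 at 30 mg/kg. Its highest libraries were the same 3 as for Adcyap1, Nts and Ucn2. Fcgr2b ranged from 3.87 to 4.49 in controls and from 4.53 to 5.86 at 20 mg/kg, and had 4.95, 5.16, 6.98 and 7.33 at 30 mg/kg. As with Nmu, no treated Fcgr2b value overlapped the controls, a pattern that 0.0827% of genes had. The gap was narrow, from 4.49 to 4.53, at values where array differences are compressed. Fcgr2b was named for its correlation with Nmu over these libraries, so the likeness is a description.

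Of 11 listed receptors and binding proteins, 9 were measured, and 0 passed the limma test at 20 mg/kg, where 1.18% of all genes did, and 0 at 30 mg/kg, where 8.55% did. At an unadjusted p under 0.05 there was 1 at each dose, Sort1 at 20 mg/kg and Vipr2 at 30 mg/kg, where 17.4% of all genes reached that level at 20 mg/kg and 23.8% at 30 mg/kg. Adcyap1r1, the PACAP receptor of chromaffin cells, averaged 9.20 ± 0.30 in controls, 9.10 ± 0.41 at 20 mg/kg and 8.92 ± 0.65 at 30 mg/kg. Its difference from control was -0.12 ± 0.20 at 20 mg/kg (limma adjusted p = 0.79) and -0.26 ± 0.22 at 30 mg/kg (adjusted p = 0.53), and the groups overlapped. Ntsr1, the high-affinity neurotensin receptor, averaged 5.51 ± 0.56 at 30 mg/kg and 5.44 ± 0.32 in controls. Sort1, sortilin, a sorting receptor that also binds neurotensin, averaged 7.58 ± 0.16 in controls, 7.99 ± 0.26 at 20 mg/kg and 7.30 ± 0.29 at 30 mg/kg, with differences of 0.39 (adjusted p = 0.11) at 20 mg/kg and -0.28 (adjusted p = 0.22) at 30 mg/kg. The other 6 moved by no more than 0.23 at either dose: Vipr1 and Vipr2, which bind PACAP and vasoactive intestinal peptide, Ntsr2, the neuromedin U receptors Nmur1 and Nmur2, and Crhbp, a binding protein of the corticotropin-releasing hormone family. Their control means were between 3.34 and 4.84, below the array medians, where differences of array values are compressed. The urocortin receptor genes Crhr1 and Crhr2 were not analysed here.

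**Figure D2:**
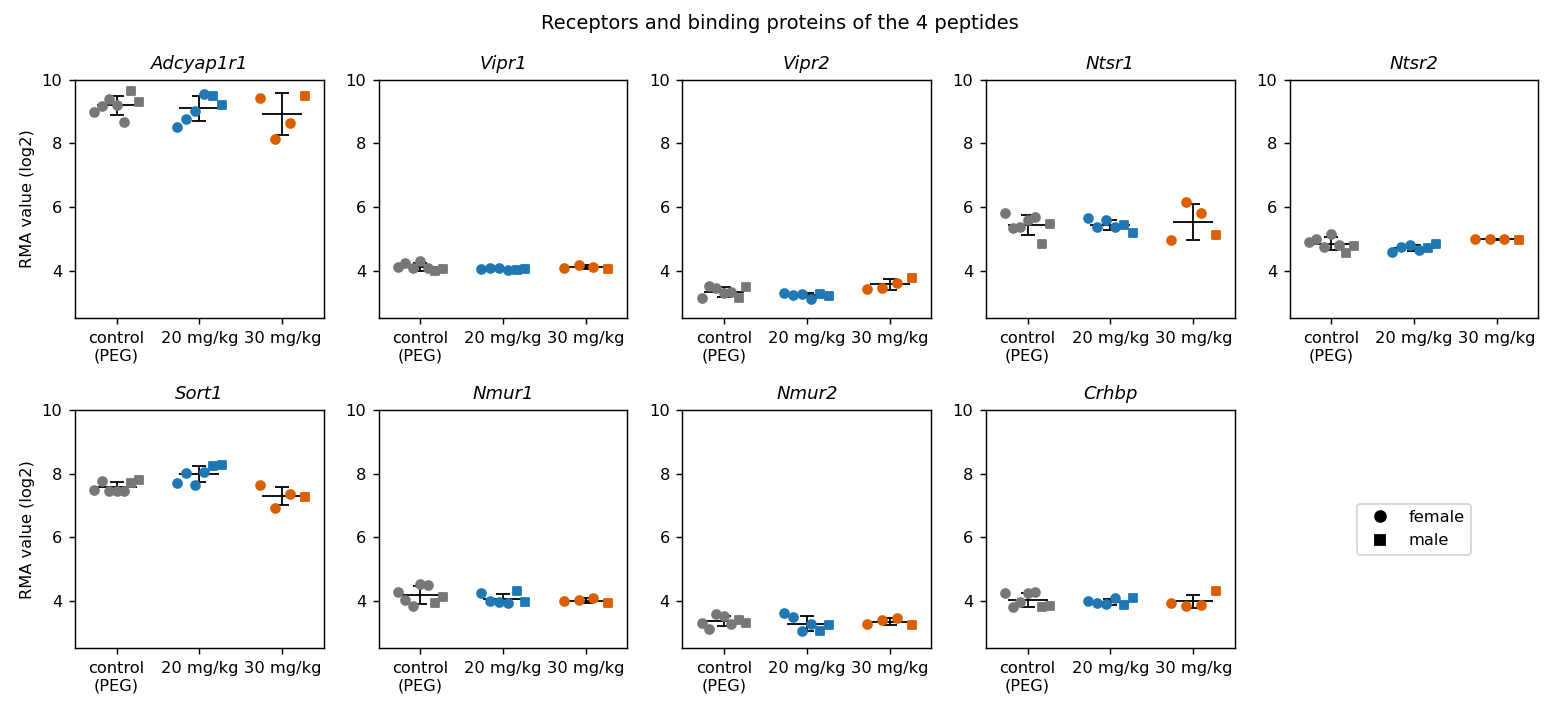
Log2 RMA values of the 9 measured receptor and binding-protein genes (vertical axes, same scale) in each library of the control, 20 mg/kg and 30 mg/kg groups; circles are female, squares male, bars the mean and whiskers 1 SD. The groups overlapped for Adcyap1r1, whose mean was 8.92 at 30 mg/kg and 9.20 in controls.

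Of the 5 lists of related genes, 62 of 68 members were measured, and 25 of the 62 passed at 30 mg/kg. Of these, 22 were higher and 3 lower, where 3.66% and 4.89% of all genes were called higher and lower. All 5 lists were drawn up with earlier results of these arrays known, so the counts are no independent evidence of a direction. At the lower dose 1 of the 62 passed, in the lower direction, where 0.524% of all genes did and 0.655% passed in the other. Both doses were set against the same 7 controls. The count at 30 mg/kg was 13 without replicate 3, 8 without replicate 4 and 4 without replicates 3 and 4 at 30 mg/kg and 10 at 20 mg/kg. It was 8 with the title-number set as a term and 2, Agrp and Calca, within numbers 1 to 4. Over all genes the 1240 calls became 799, 456, 205, 437 and 16 in the same order.

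**Figure D3:**
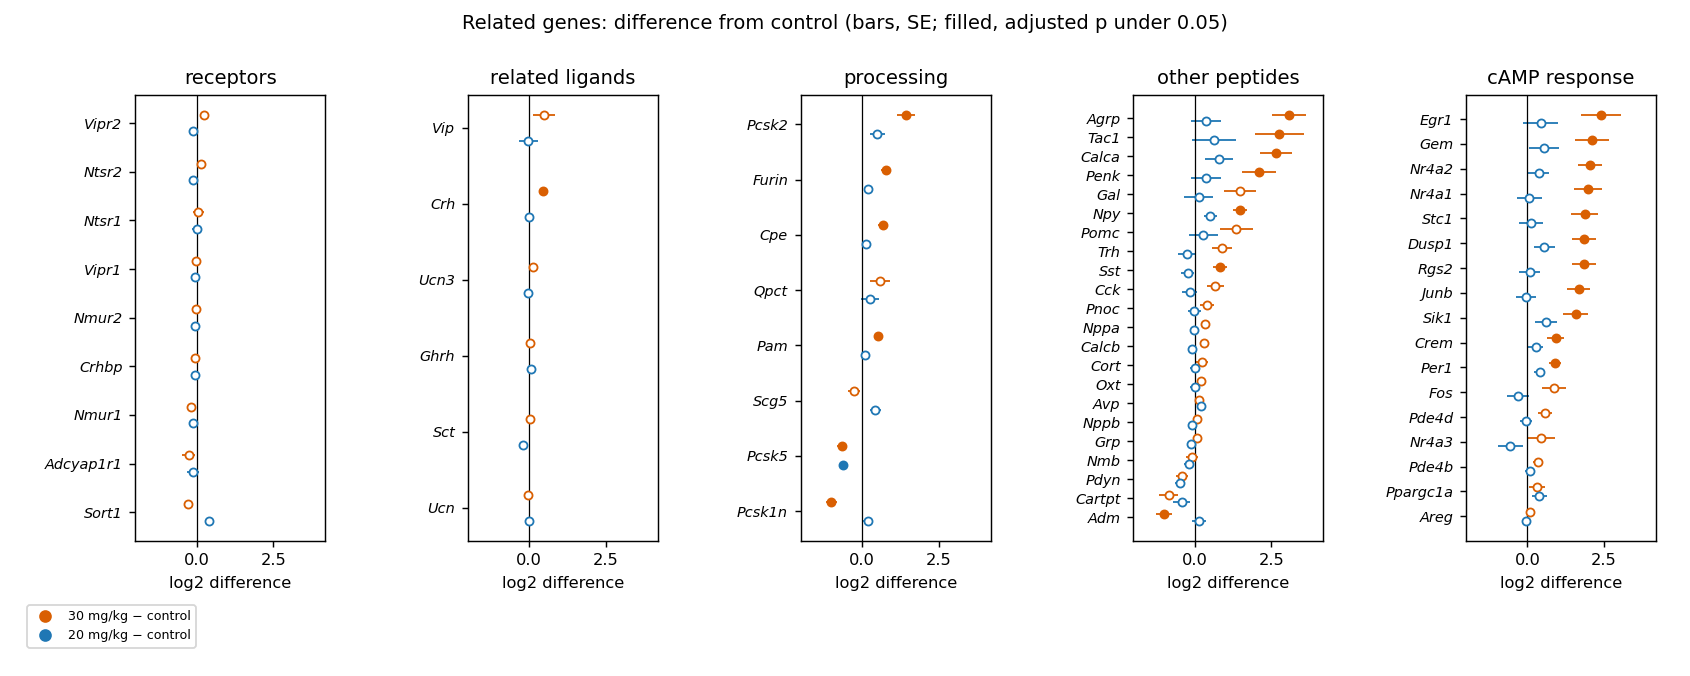
Differences from control on the log2 scale (horizontal axes) for the 62 measured related genes, grouped by list; orange is 30 mg/kg minus control, blue 20 mg/kg minus control, bars are SE and filled points passed an adjusted p of 0.05. Filled orange points fill much of the cAMP-response panel (11 of 17) and none of the receptor panel (0 of 9), and 1 blue point is filled (Pcsk5).

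Of 6 measured ligands of the same families, 1 passed at 30 mg/kg, where 8.55% of all genes did. Crh, corticotropin-releasing hormone, rose by 0.44 ± 0.13 (limma adjusted p = 0.038), from a low level, with 4.15 ± 0.24 at 30 mg/kg and 3.72 ± 0.15 in controls, and lost the call in 6 of 17 fits that left out 1 library. Vip, the closest relative of PACAP, had 3.26, 3.65, 5.51 and 4.83 in replicates 1 to 4 at 30 mg/kg, with a difference of 0.47 ± 0.36 (adjusted p = 0.46). Ucn3 and Ghrh differed from control by 0.12 and 0.04 at 30 mg/kg, and Sct by -0.21 at 20 mg/kg, none past the test. The list's median difference was 0.08 at 30 mg/kg, against 0.01 over all genes. Nms was not analysed here.

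Of 8 measured genes that cut and modify prohormones, 4 rose and 2 fell at 30 mg/kg, against 3.66% and 4.89% of all genes. The list's median difference was 0.55. These counts were 2 and 1 without replicate 3, 2 and 2 without replicate 4, 3 and 1 with the title-number set as a term, and 0 and 0 both within numbers 1 to 4 and without the 3 libraries. Pcsk2, prohormone convertase 2 of secretory granules, rose by 1.43 ± 0.29 (limma adjusted p = 0.0058), with 8.81 ± 0.41 at 30 mg/kg and 7.37 ± 0.42 in controls. Furin, a convertase of the trans-Golgi, rose by 0.77 (adjusted p = 0.0046), Cpe, the carboxypeptidase that trims cut peptides, by 0.69 (adjusted p = 0.013), and Pam, which amidates peptide ends, by 0.52 (adjusted p = 0.015). All 4 libraries at 30 mg/kg lay above the control mean for each of these 4 genes. They were named because this same comparison called them higher, so this is a description. Pcsk1n, proSAAS, an inhibitor of prohormone convertase 1, fell by 1.0 ± 0.18 (adjusted p = 0.0027), with 8.24 ± 0.41 at 30 mg/kg and 9.23 ± 0.26 in controls. Pcsk5, another convertase, fell by 0.64 at 30 mg/kg (adjusted p = 0.023) and by 0.62 at 20 mg/kg (adjusted p = 0.0495). That last call was the one made at 20 mg/kg, and 14 of 17 fits that left out 1 library lost it. Qpct and Scg5 did not pass, with differences of 0.58 (adjusted p = 0.31) and -0.27 (adjusted p = 0.44) at 30 mg/kg.

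Of 22 other peptides of chromaffin cells, autonomic neurons or pituitary, 6 rose and 1 fell at 30 mg/kg, against 3.66% and 4.89% of all genes. The list's median difference was 0.37. These counts were 3 and 1 without replicate 3, 3 and 0 without replicate 4, 2 and 0 both with the title-number set as a term and within numbers 1 to 4, and 3 and 0 without the 3 libraries. Agrp, the agouti-related peptide known from hypothalamus and adrenal, had 7.99, 9.38, 9.65 and 10.24 in replicates 1 to 4 at 30 mg/kg, a lowest value of 5.67, a median of 5.86 and a highest of 8.67 in controls. Replicate 1 lay below control replicate 6, the highest control, and the other 3 lay above all controls. Agrp rose by 3.09 ± 0.55 (limma adjusted p = 0.0030). Calca, the precursor of calcitonin and its gene-related peptide, had 5.65, 5.75, 6.26 and 8.66 at 30 mg/kg and 3.83 to 4.12 in controls, without overlap, and rose by 2.66 ± 0.52 (adjusted p = 0.0054).

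Tac1 had 4.11, 3.81, 8.78 and 8.34 in replicates 1 to 4 at 30 mg/kg and 3.34 to 3.75 in controls. Replicates 1 and 2 lay just above the controls and replicates 3 and 4 far above. Tac1 rose by 2.77 ± 0.80 (adjusted p = 0.040), and 10 of 17 fits that left out 1 library lost this call, with 1.80 without replicate 3 at 30 mg/kg. Penk had 8.13, 9.08, 11.65 and 11.38 at 30 mg/kg and 7.64 to 8.34 in controls, replicate 1 within the control range, and rose by 2.11 ± 0.55 (adjusted p = 0.026), a call lost in 4 of the 17. Npy, abundant in chromaffin cells, had 11.92, 12.20, 12.85 and 12.66 at 30 mg/kg and 10.38 to 11.37 in controls, without overlap, and rose by 1.48 ± 0.23 (adjusted p = 0.0014). Sst, somatostatin, rose by 0.83 (adjusted p = 0.037), with 0.49 and no call without replicate 4 at 30 mg/kg and the call lost in 6 of the 17. Adm, adrenomedullin, fell by 1.0 ± 0.26 (adjusted p = 0.024). Gal, galanin, did not pass, with a difference of 1.48 ± 0.53 (adjusted p = 0.092). Nppa and Trh, with differences of 0.35 and 0.90 at 30 mg/kg, and Pdyn, with -0.48 at 20 mg/kg, did not pass either.

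Of 17 measured genes induced by cAMP and calcium signals, 11 rose at 30 mg/kg and 0 fell, against 3.66% and 4.89% of all genes. The list's median difference was 1.58. The count of 11 was 6 without replicate 3 and 1 without replicate 4 at 30 mg/kg, 2 with the title-number set as a term, 0 within numbers 1 to 4 and 1 without the 3 libraries. Over all genes the 1240 calls became 799, 456, 437, 16 and 205 in the same order. The highest was Egr1, an immediate early transcription factor, which rose by 2.40 ± 0.64 (limma adjusted p = 0.027), with 9.98, 9.95, 10.80 and 11.49 in replicates 1 to 4 at 30 mg/kg and 6.65 to 10.15 in controls. Replicates 1 and 2 lay below control replicate 2, the highest control. Gem, a small GTP-binding protein, rose by 2.11 (adjusted p = 0.025), and Nr4a2, an orphan nuclear receptor, by 2.04 ± 0.39 (adjusted p = 0.0049). Nr4a2 had 7.96, 7.79, 9.07 and 9.30 at 30 mg/kg, and no library overlapped the controls, whose highest was 7.45. The others that rose were Nr4a1 (1.97), Stc1, stanniocalcin 1 (1.87), the phosphatase gene Dusp1 (1.85), Rgs2, a regulator of G-protein signalling (1.84), Junb, an AP-1 subunit (1.67), the kinase gene Sik1 (1.58), Crem, the cAMP response element modulator (0.92), and the clock gene Per1 (0.90), with adjusted p from 0.0087 to 0.046. With 1 library left out, the call of Crem was lost in 8 of 17 fits and those of Egr1 and Gem in 4 each, while that of Nr4a2 was kept in all 17. Fos, the AP-1 subunit, had a difference of 0.87 ± 0.39 and did not pass (adjusted p = 0.19). Pde4d and Pde4b, which break down cAMP, had 0.58 and 0.34 and did not pass. At the lower dose 0 of the 17 passed in limma, 1 of them, Per1, having an unadjusted p under 0.05, as 17.4% of all genes did, and within title numbers 5 to 10 Per1 did, at 0.63 (adjusted p = 0.018). Without replicates 3 and 4 at 30 mg/kg and 10 at 20 mg/kg, the calls of Agrp, Calca, Npy and Nr4a2 remained at 30 mg/kg, with differences of 2.70, 1.72, 0.996 and 1.27.

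**Figure D4:**
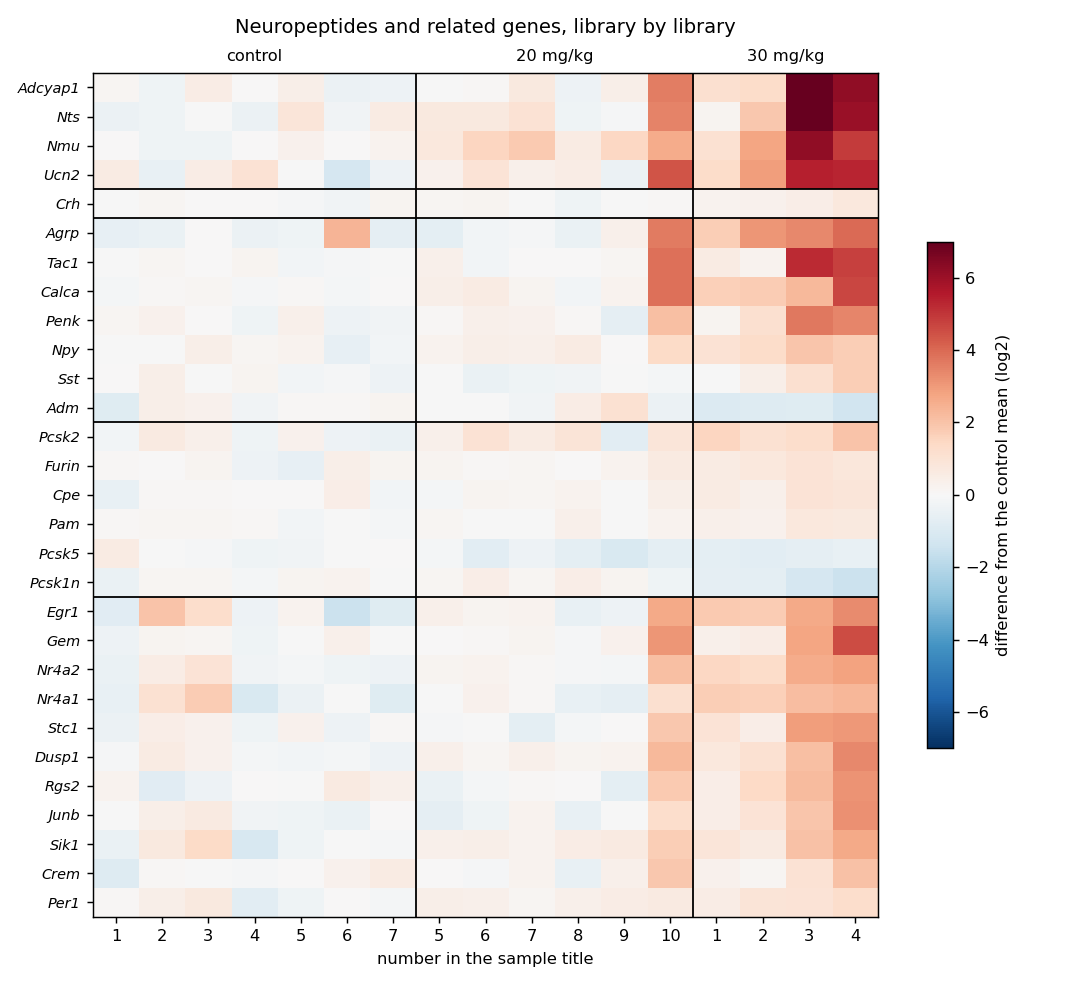
Difference of each library from the control mean on the log2 scale (colour) for the 4 neuropeptides (top block) and the related genes called in either dose comparison or by sex; columns are libraries with their title numbers, ordered control, 20 mg/kg, 30 mg/kg. The darkest cells of Adcyap1, Nts and Ucn2 are those of replicate 10 at 20 mg/kg and replicates 3 and 4 at 30 mg/kg, where Adcyap1 had 7.88, 11.34 and 10.52.

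By sex, 1 of the 62 related genes passed, where 0.703% of all genes were called higher and 0.255% lower in male libraries. Crem was higher in male libraries by 1.03 ± 0.23 (limma adjusted p = 0.047), with 8.41 ± 0.85 in the 5 male and 7.41 ± 0.46 in the 12 female libraries. Its male values ranged from 7.69 to 9.42 and its female values from 6.48 to 8.41, so the sexes overlapped. The call was lost in 12 of 17 fits that left out 1 library, and without the 3 libraries the difference was 0.55.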

How the data were processed

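Total RNA was amplified from small amounts, biotin-labelled and hybridised to Affymetrix arrays, per the labels' protocols. The authors deposited log2 values made by RMA in Affymetrix Expression Console 1.3.0.187, per the submitters' processing notes; they ran from 2.22 to 13.7 for 29214 probe sets and were used as deposited. Of these, 15310 carried 1 gene symbol, 323 several and 13581 were not listed; the probe set with the highest mean stood for a gene, which gave 14506 genes. Gene loci and promoter windows came from RefSeq tables of GRCr8.

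Models were fitted with limma 3.58.1 in R 4.3.3 to all 17 arrays, with group and sex as terms, with 2-sided p adjusted by Benjamini-Hochberg over the 14506 genes at a threshold of 0.05. The fit was tested on simulated data. The number of arrays limits the precision. Across genes, the deviations of 7 pairs of a treated and a control array with the same number correlated at -0.18 to 0.08. The numbers were therefore not used as pairs in the main fit. With 7 pairs and no reference distribution, this check cannot exclude that the samples were paired.

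The 4 genes and all gene lists were chosen with earlier results of these data known. Named were the peptides, all receptors, each related gene that passed, otherwise the 3 of each list with the smallest p in either dose comparison, and the 5 genes with the highest r to each peptide. Some genes and the sex-linked genes are not reported here.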

Additional observations from a re-analysis of the deposited data

Results flagged for a closer look

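Of 120 groups of libraries tested for a value far from the others (Dixon's criterion at 95%), 19 held one. The criterion marks about 1 in 20 groups by chance, but that rate cannot be set against the 19 here, since the genes were chosen on these data. In 15 of the 19 the library was replicate 10 at 20 mg/kg, the highest of its group each time. Among the peptides these were Adcyap1 at 7.88, Nts at 8.03 and Ucn2 at 9.92. Nmu, at 7.94 in the same library, was not set apart from its group. Among the other peptides they were Agrp at 9.95, Calca at 7.80, Penk at 10.10 and Tac1 at 7.39. Among the genes induced by cAMP and calcium signals they were Crem at 9.25, Dusp1 at 8.99, Egr1 at 10.83, Gem at 8.59, Nr4a2 at 8.59, Rgs2 at 9.02, Sik1 at 8.58 and Stc1 at 8.45. All 15 values come from 1 library, so they are not separate events.

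The other values far from their group were Adm at 7.80 in replicate 4 at 30 mg/kg, Agrp at 8.67 in control replicate 6, Pcsk5 at 6.05 in control replicate 1 and Vip at 4.69 in control replicate 5.

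For 3 receptor or binding-protein genes, groups lay on opposite sides of the control mean, and these differences were not tested. Ntsr2 averaged 0.14 above the control mean at 30 mg/kg and -0.12 relative to it at 20 mg/kg. Vipr2 averaged 0.23 above at 30 mg/kg and -0.10 at 20 mg/kg. Crhbp averaged 0.25 above the control mean of its sex in treated males and -0.17 relative to it in treated females.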

How the results depend on the processing

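The 4 peptides kept a positive 30 mg/kg difference in every setting run, and with 1 library left out it ranged from 2.81 to 4.82 for Adcyap1, 2.64 to 4.97 for Nts, 2.86 to 4.60 for Nmu and 3.14 to 4.54 for Ucn2. At 20 mg/kg these ranges were 0.20 to 0.92, 0.46 to 1.25, 1.27 to 1.56 and 0.33 to 1.40 in the same order, and Nts turned to -0.29 without replicate 10 within title numbers 5 to 10. By sex, Adcyap1 (-0.23), Nts (-0.061) and Ucn2 (-1.03) turned without replicates 3 and 4 at 30 mg/kg and 10 at 20 mg/kg; with 1 library left out the ranges were 0.60 to 1.51 for Adcyap1, 0.70 to 1.66 for Nts, 0.49 to 0.99 for Nmu and -0.23 to 1.06 for Ucn2. The causes were not tested.

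The 1240 genes (25 related) called by limma at 30 mg/kg became 383 (9) at a threshold of 0.01, 437 (8) with the title-number set as a term, 16 (2) within numbers 1 to 4, where fewer libraries enter, and 205 (4) without the 3 libraries; with 1 library left out they ranged from 456 to 1563 (8 to 28), the lowest without replicate 4 at 30 mg/kg and 799 (13) without replicate 3. The 171 genes (1 related) called at 20 mg/kg became 12 (0) at 0.01, 55 (0) without sex, 52 (0) with the set as a term, 577 (1) with array weights, 113 (0) after quantile normalization, 104 (0) without the 3 libraries and 104 (1) without replicate 10 within numbers 5 to 10, and ranged from 22 to 470 (0 to 1) with 1 library left out, at the ends without replicate 7 at 20 mg/kg and without control replicate 5. The 139 genes (1 related) called by sex became 0 (0) at 0.01, with 2547 at an unadjusted p under 0.05, 38 (0) with the set as a term, 289 within numbers 5 to 10 and 543 (2) with array weights, and ranged from 0, without control replicate 6, to 231 (0 to 2); the related gene was lost also after quantile normalization, after median centring and without the 3 libraries (0 each). The split into higher and lower genes depended on the scaling: 531 and 709 at 30 mg/kg, against 729 and 685 after quantile normalization and 756 and 639 after median centring, and at 20 mg/kg 95 and 76, against 43 and 70 and 114 and 115. By sex it was 102 and 37, against 57 and 58 after quantile normalization.

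The labels do not say whether the title numbers pair the samples. A replicate block on them left 72 genes (1 related) at 30 mg/kg, 0 (0) at 20 mg/kg and 0 (0) by sex in limma, with 805 and 1228 at an unadjusted p under 0.05 in the last 2, and turned Pcsk5 at 20 mg/kg to 0.058. Within controls, the correlation of Adcyap1 and Nmu turned to 0.041 and that of Nmu and Ucn2 to 0.0034 after quantile normalization, and the second pair to 0.069 after median centring.

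Probe sets near the lower quartile of an array have compressed differences, which touches most receptors and the control levels of Adcyap1 and Nts.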
